A study of Mus musculus with 4 samples.

Results

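The genes described here encode the 5 subunits of the transcription factor NF-kB (Rel, Rela, Relb, Nfkb1 and Nfkb2) and 5 proteins that restrain or shape it (Nfkbia, Nfkbie, Nfkbiz, Bcl3 and Tnfaip3). They were taken as the non-control probes whose gene name on the array equals one of these 10 symbols, which gave 14 probes (32 spots) of 41174 probes (43379 spots) on each array, and 10 of 19822 named genes. Rela had 2 probes and Nfkb1 had 4, and the other 8 genes had 1 probe each. All 14 probes were well above background on all 4 arrays, and none of their spots was saturated or carried an outlier mark.

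The study compared 4 populations of cells grown from the bone marrow of BALB/C mice, with 1 one-colour Agilent array per population. Antibody-treated sDCs were made like sDCs with an antibody added to neutralize IL-10, at a dose the labels used here leave out. The sDCs grew from lineage-depleted progenitors seeded on a layer of mesenchymal stem cells (Sca-1+CD117-Lin-), received lipopolysaccharide (LPS), a bacterial product, on day 4 and were taken as formed on day 9. The maDCs (mature dendritic cells) were imDCs kept for another 4 to 5 days with 10 ng/mL LPS. The imDCs (immature dendritic cells) were loosely adherent clusters collected on day 4 of a marrow culture with GM-CSF at 10 ng/mL and IL-4 at 5 ng/mL, selected with beads for the integrin CD11c. For the cultures on stroma the labels record neither GM-CSF nor IL-4 nor how much LPS was used, and how the cells were separated from the stroma, the age of the mice and their number are likewise not stated there. Levels below are log2 signals relative to the 75th percentile of their array, so 0 is that percentile, and differences between arrays are in log2 units. With 1 array per population there is no measure of the spread between cultures, and no difference below was tested. Calls are made at a fixed size, a log2 difference of 1 (2-fold).

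NF-kB works as a dimer of Rel-family proteins. In resting cells the dimers are held in the cytoplasm by IkB proteins. LPS acts through toll-like receptor 4 to activate the IkB kinase complex, which marks IkB for destruction and frees dimers such as p50-RelA and p50-c-Rel. A slower alternative route processes p100 to p52, the partner of RelB. Several IkB genes and Tnfaip3 are themselves NF-kB targets, so the pathway induces its own brakes, and in dendritic cells it drives costimulatory molecules and cytokines such as IL-12.

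The members fell into a few patterns across the arrays, shown in the plot of levels by array. On their brightest probes the subunit genes Rel, Relb, Nfkb1 and Nfkb2 shared the order maDC, imDC, sDC and antibody-treated sDC from high to low. The last step was small, from 0.02 for Nfkb2 to 0.10 for Relb. The other Nfkb1 probes had antibody-treated sDCs above sDCs, and the faintest had imDCs at the low end. Nfkbia, Nfkbie, Nfkbiz and Tnfaip3 were also highest in maDCs, but had imDCs at the low end, below both cultures on stroma. Bcl3 had its high end in the stroma cultures, and Rela stayed within a range of 0.59 on its brighter probe. Against imDCs, then, the sDC array held less signal for most subunits and more for Nfkbia, Nfkbie, Nfkbiz, Bcl3 and Tnfaip3.

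**Figure D1:**
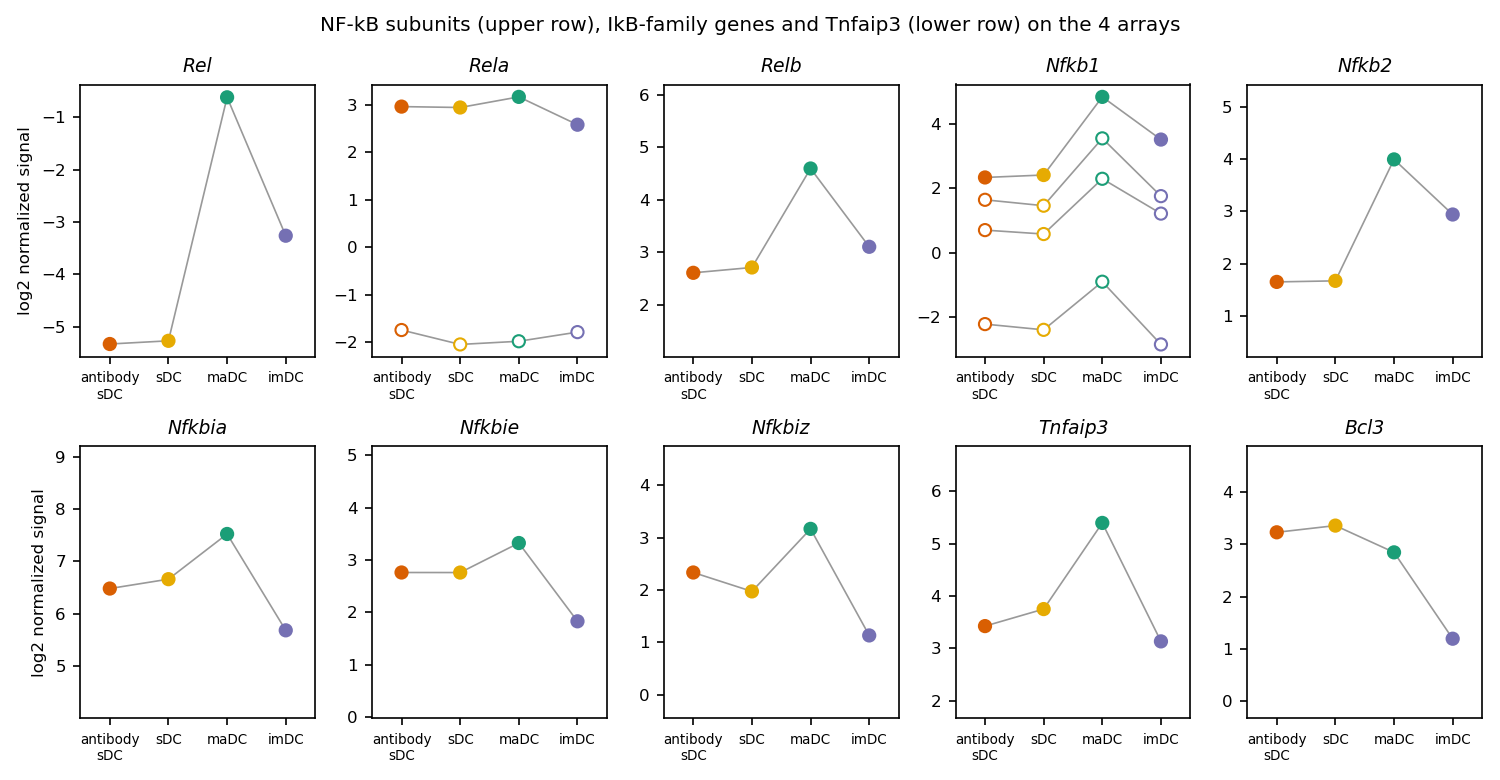
Normalized log2 signal (y axis, relative to the array's 75th percentile) of every probe on the arrays of antibody-treated sDCs, sDCs, maDCs and imDCs. Filled points are the probe with the highest mean signal of a gene, open points its other probes, and lines join the same probe. The y axes differ in position, and levels are not comparable between probes. In the stroma cultures the upper-row genes other than Rela lie below imDCs on their filled probe, and all 5 lower-row genes lie above imDCs.

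Rel encodes c-Rel, a subunit with a strong activation domain that is largely confined to blood cells and needed for IL-12 p40 transcription in macrophages. Its level was -5.33 in antibody-treated sDCs and -5.27 in sDCs, against -0.62 in maDCs and -3.26 in imDCs. The maDC array stood far above the others, and both stroma arrays lay close to the limit of measurement, since the lowest signal well above background was -5.76 on the antibody array and -6.04 on the sDC array. Rel was 25.1-fold lower in sDCs than in maDCs (-4.65), 4.02-fold lower in sDCs than in imDCs (-2.01) and 6.25-fold higher in maDCs than in imDCs (2.64). The background correction moved these values of a faint probe. Under normexp correction the difference was -3.31 between sDCs and maDCs, and -0.89, inside 2-fold, between sDCs and imDCs. In RNA from a mixed culture, fewer cells carrying a transcript and less of it per cell cannot be told apart, here and for every member. The deposited coordinates place the Rel probe, which has 60 letters, at only 15 bases of mouse build mm9, chr11:23641729-23641743, on the minus strand. The place of its other letters is not given.

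Nfkb1 encodes p105, the precursor of the p50 subunit, and p105 itself retains dimers in the cytoplasm. Its brightest probe, at mm9 chr3:135247710-135247771 on the minus strand, was spotted 10 times, and the spots averaged 2.33 ± 0.04 in antibody-treated sDCs, 2.41 ± 0.03 in sDCs, 4.83 ± 0.04 in maDCs and 3.51 ± 0.04 in imDCs (SD between 10 spots of 1 array). The spots of maDCs and imDCs overlapped neither each other nor those of the stroma cultures, while the spots of the antibody-treated sDCs (2.26 to 2.39) and of the sDCs (2.34 to 2.44) overlapped. These SDs cover spotting and scanning alone. Nfkb1 was 5.37-fold lower in sDCs than in maDCs (-2.42), 2.14-fold lower in sDCs than in imDCs (-1.10) and 2.50-fold higher in maDCs than in imDCs (1.32).

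The 3 other Nfkb1 probes, listed under cDNA accessions, also had maDCs on top. They gave -1.49 to -2.09 between sDCs and maDCs and 1.08 to 1.95 between maDCs and imDCs, so all 4 probes passed 2-fold in both comparisons. They did not repeat the sDC and imDC contrast: the probe at mm9 chr3:135274175-135274234 gave -0.63, that at chr3:135275144-135275203 gave -0.30, and that at chr3:135281195-135281254 gave 0.45, with sDCs above imDCs. The lower Nfkb1 signal in sDCs than in imDCs therefore passed 2-fold on 1 of 4 probes.

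**Figure D2:**
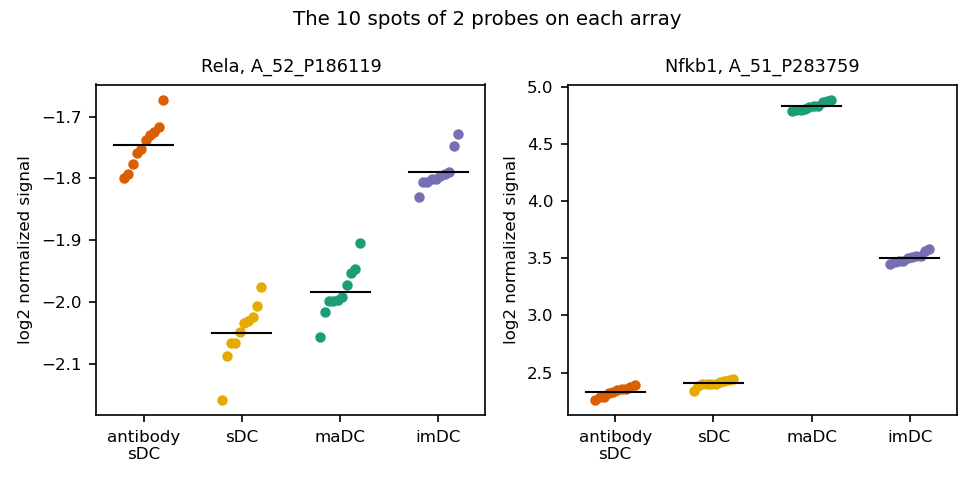
Normalized log2 signal (y axis) of the 10 spots of the fainter Rela probe (left) and the brightest Nfkb1 probe (right) on the 4 arrays. Each point is a spot and black lines are array means. For Nfkb1 the spots of maDCs (4.79 to 4.89) and imDCs (3.45 to 3.58) stand apart from the stroma cultures, whereas all Rela spots lie between -2.16 and -1.67.

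Nfkb2 encodes p100, an inhibitor of RelB that is cut to the p52 subunit when the alternative route is active. Its level was 1.66 in antibody-treated sDCs, 1.68 in sDCs, 3.99 in maDCs and 2.94 in imDCs. The stroma arrays were nearly equal and were the low pair. Nfkb2 was 4.99-fold lower in sDCs than in maDCs (-2.32), 2.41-fold lower in sDCs than in imDCs (-1.27) and higher in maDCs than in imDCs by 1.05. The last value lay at the 2-fold line and was 0.85 under quantile normalization. Nfkb2 was the member nearest to Nfkb1 in profile: after each gene was centred on its own mean over the 4 arrays, their levels differed by 0.10 log2 units (root mean square over 4 arrays). This distance used the brightest Nfkb1 probe alone, whose contrast between sDCs and imDCs the other Nfkb1 probes did not repeat.

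Relb encodes RelB, the activating partner of p52, which is needed for the development of some dendritic cell subsets. Its level was 2.60 in antibody-treated sDCs, 2.71 in sDCs, 4.60 in maDCs and 3.10 in imDCs, on a probe at mm9 chr7:20191722-20191781, minus strand. The order was that of Nfkb2 and of the brightest Nfkb1 probe, with a smaller gap between imDCs and the stroma cultures. Relb was 3.70-fold lower in sDCs than in maDCs (-1.89) and 2.82-fold higher in maDCs than in imDCs (1.49), and sDCs lay within 2-fold of imDCs (-0.39).

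Rela encodes p65, the main activating subunit of the canonical dimer, and is known to be regulated chiefly through IkB and protein modification. The brighter probe read 2.97 in antibody-treated sDCs, 2.95 in sDCs, 3.17 in maDCs and 2.58 in imDCs. No pair of arrays was 2-fold apart, and the widest gap was 0.59, between maDCs and imDCs. The fainter probe, spotted 10 times, read -1.75 ± 0.04 in antibody-treated sDCs, -2.05 ± 0.05 in sDCs, -1.98 ± 0.04 in maDCs and -1.79 ± 0.03 in imDCs (SD between spots). It gave the opposite order for maDCs against imDCs (-0.19) and for sDCs against imDCs (-0.26, against 0.36 on the brighter probe), so the sign of the small Rela differences was not settled by its 2 probes.

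The array sequences behind these patterns can be seen for the fainter Rela probe, which differs in sign from the brighter one in several comparisons, and for the Nfkb2 and Nfkbia probes, which carry the contrast between a subunit and an inhibitor gene. The Nfkb2 probe covers 140 genomic bases (mm9 chr19:46386146-46386285) and the Nfkbia probe 496 bases (mm9 chr12:56590945-56591440) with only 60 letters each, so each matches the genome in separate blocks. The Rela probe lies at mm9 chr19:5647136-5647195. An mm9 gene annotation was not used here, so exon numbers are not given. The sequences are as deposited, 5′ to 3′.
Rela probe A_52_P186119: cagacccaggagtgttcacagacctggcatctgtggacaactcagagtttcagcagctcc
Nfkb2 probe A_51_P454217: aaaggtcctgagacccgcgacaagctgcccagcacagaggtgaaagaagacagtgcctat
Nfkbia probe A_51_P295192: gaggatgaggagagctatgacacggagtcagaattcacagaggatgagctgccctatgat

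Nfkbia encodes IkB-alpha, the classical inhibitor that is degraded on LPS signalling and rapidly made anew as an NF-kB target. Its level was 6.48 in antibody-treated sDCs, 6.66 in sDCs, 7.52 in maDCs and 5.68 in imDCs. All 3 LPS-exposed arrays were above the imDC array. Nfkbia was 3.58-fold higher in maDCs than in imDCs (1.84) and lay just inside 2-fold in sDCs against imDCs (0.98) and in sDCs against maDCs (-0.86). Under normexp correction sDCs passed 2-fold above imDCs, at 1.12.

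Nfkbie encodes IkB-epsilon, another cytoplasmic inhibitor that acts with a delay and binds c-Rel and RelA dimers. Its level was 2.76 in antibody-treated sDCs, 2.76 in sDCs, 3.32 in maDCs and 1.83 in imDCs. The stroma cultures lay between the other arrays. Nfkbie was 2.82-fold higher in maDCs than in imDCs (1.49) and within 2-fold in sDCs against imDCs (0.93) and against maDCs (-0.56).

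Nfkbiz encodes IkB-zeta, a nuclear IkB protein that binds p50 and is needed for late LPS-induced genes such as Il6. Its level was 2.33 in antibody-treated sDCs, 1.97 in sDCs, 3.17 in maDCs and 1.13 in imDCs. The order had maDCs on top and imDCs at the low end. Nfkbiz was 4.10-fold higher in maDCs than in imDCs (2.03), 2.29-fold lower in sDCs than in maDCs (-1.19) and within 2-fold in sDCs against imDCs (0.84).

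Tnfaip3 encodes A20, a ubiquitin-editing enzyme that ends signalling upstream of the IkB kinases. Its level was 3.42 in antibody-treated sDCs, 3.75 in sDCs, 5.40 in maDCs and 3.13 in imDCs. The maDC array stood alone, and the other 3 lay within 0.62 of each other. Tnfaip3 was 4.80-fold higher in maDCs than in imDCs (2.26) and 3.13-fold lower in sDCs than in maDCs (-1.65), while sDCs were within 2-fold of imDCs (0.62).

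Bcl3 encodes a nuclear IkB protein that binds p50 and p52 homodimers and, in mouse macrophages, limits the transcription of inflammatory cytokines. Its level was 3.23 in antibody-treated sDCs, 3.36 in sDCs, 2.84 in maDCs and 1.20 in imDCs. It was the member with the reverse order between the LPS-exposed cultures: sDCs lay above maDCs by 0.51, a value inside 2-fold that ranged from 0.45 to 0.57 over the alternatives. Bcl3 was 4.47-fold higher in sDCs than in imDCs (2.16) and 3.14-fold higher in maDCs than in imDCs (1.65).

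Between sDCs and maDCs, 6 of the 10 members were at least 2-fold lower in sDCs, where 16.8% of the 14601 genes with a value were, and none was 2-fold higher, where 14.2% of all genes were. The 6 were Rel, Nfkb1, Nfkb2, Relb, Tnfaip3 and Nfkbiz, which makes 4 of 5 subunits and 2 of the other 5. The members' median was -1.42, against 0.03 over all genes. All of these arrays lay on the same slide. Stroma, starting cells, the CD11c selection of the imDCs behind the maDCs, and any difference in cytokines or LPS dose cannot be told apart in this comparison. Cytokines and LPS dose were not recorded for the stroma cultures. Antibody-treated sDCs, set against the same maDC array, had 6 of 10 members at least 2-fold lower (16.9% of all genes) and none 2-fold higher (13.9%). There Nfkbia took the place of Nfkbiz, since Nfkbia read -1.04 and Nfkbiz -0.83.

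Between sDCs and imDCs, the members split. Rel, Nfkb1 and Nfkb2 were at least 2-fold lower in sDCs (16.1% of 15037 genes), and Bcl3 alone was at least 2-fold higher (25.4% of genes). By sign alone, 4 of 5 subunit genes were lower in sDCs, with a median of -1.10, and the other 5 members were all higher, with a median of 0.93. Over all genes 42.8% were lower, 57.2% were higher, and the median was 0.21, so a higher value in sDCs was the more common outcome on these arrays. None of the 10 members changed sign in this comparison under the 6 alternatives that give a value. Of these, dropping the dim filter could not move a member, since all member probes were well above background. The median over probes could move only Rela and Nfkb1. Single probes of both genes did differ in sign from the brightest, at 0.45 for an Nfkb1 probe and -0.26 for the fainter Rela probe. Antibody-treated sDCs, which share the imDC array with this comparison, had 4 of 5 subunit genes lower than imDCs (43.9% of all genes) and the other 5 members higher (56.1%), with Bcl3 (2.03) and Nfkbiz (1.20) at least 2-fold higher (24.0%) and Rel, Nfkb1 and Nfkb2 at least 2-fold lower (16.4%). For Nfkb1 this again held on the brightest probe alone, and its other probes gave -0.51, -0.11 and 0.63. The imDC array lay on another slide than the other 3. Slide, LPS, stroma, starting cells, CD11c selection, any difference in cytokines and days of culture cannot be told apart in this comparison.

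Between maDCs and imDCs, 9 of 10 members were at least 2-fold higher in maDCs, where 21.6% of 14108 genes were, and none was 2-fold lower (10.8% of genes). Rela was the exception. The members ranged from 0.59 to 2.64 with a median of 1.57, against 0.19 over all genes. The split of all genes depended on the scaling, with 3045 genes at least 2-fold higher and 1517 lower here but 2406 and 1947 under quantile normalization. Quantile normalization moved the median of all genes to -0.02 in this comparison and to 0.00 for sDCs against imDCs. LPS, longer culture and slide cannot be told apart in these values.

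**Figure D3:**
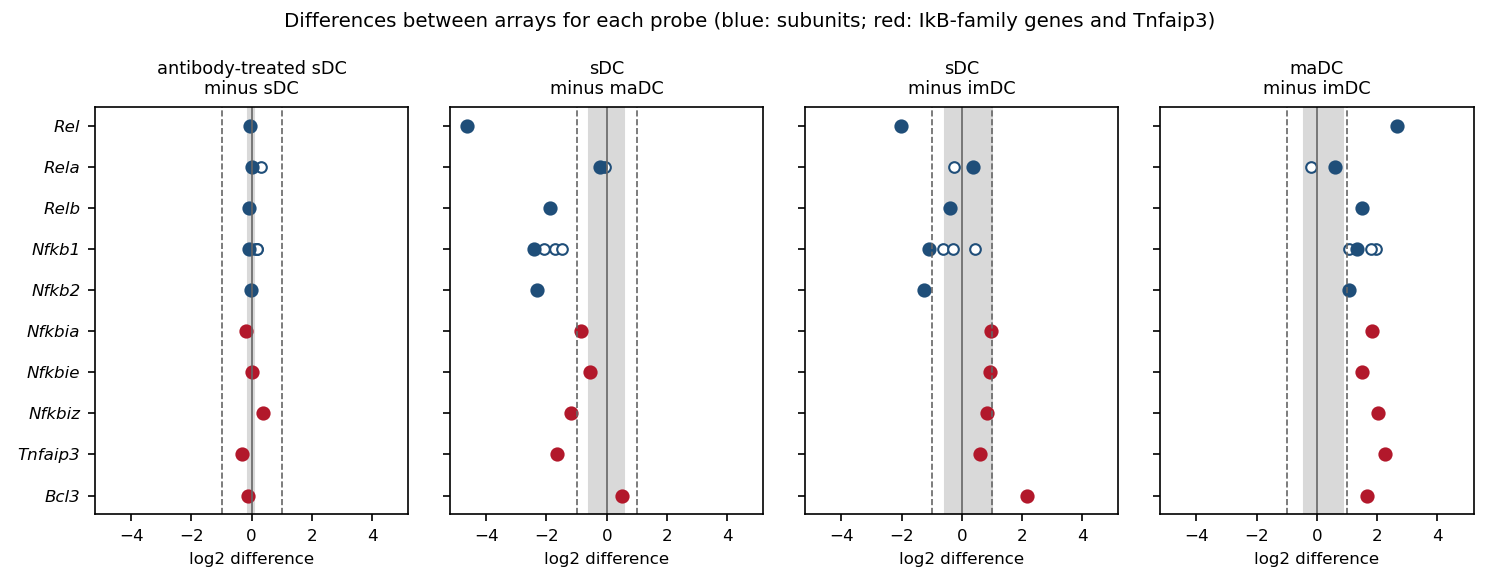
Log2 difference (x axis) of every probe in the 4 comparisons, with genes down the page, subunits in blue, and IkB-family genes and Tnfaip3 in red. Filled points are the brightest probe of a gene, open points its other probes, dashed lines mark 2-fold and the grey band is the interquartile range of all genes with a value. In sDCs against imDCs, blue filled points other than Rela lie left of 0 and red points right of it. In antibody-treated sDCs against sDCs every point is inside 2-fold.

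Neutralizing IL-10 was accompanied by small differences in these genes. None of the 10 members was 2-fold higher or lower in antibody-treated sDCs than in sDCs, where 0.862% of 14393 genes were higher and 1.26% lower. The largest values were 0.36 for Nfkbiz and -0.33 for Tnfaip3, and the members' median of -0.07 lay near that of all genes, -0.03. The 5 subunit genes ranged from -0.10 to 0.02 on their brightest probes. For Nfkb1 the brightest probe gave -0.08, whereas its other probes were all higher in antibody-treated sDCs, by 0.12 to 0.18. For scale, the median SD between repeated spots of a probe was 0.05 to 0.06 on the 4 arrays, and the scanner software put the error of each member spot at 10.0% to 18.2% of its signal. The fainter Rela probe was 0.30 higher in antibody-treated sDCs, with no overlap between its 10 spots on each array (-1.80 to -1.67, against -2.16 to -1.98 in sDCs), whereas the brighter probe gave 0.02. Without replicate arrays, differences of this size cannot be separated from variation between cultures or labellings.

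RefSeq promoter windows (build GRCm38.p6) were found for 7 members, with 10 start sites in all. Below, 1 window each is shown for Rel, Nfkb2, Nfkbia, Tnfaip3, Rela and Bcl3, whose differences between sDCs and imDCs included both signs. The Nfkbie window and the further windows of Nfkb2 and Tnfaip3 are not shown. The windows hold the 250 bases before a start. They were searched on both strands for the kB consensus, the site that NF-kB dimers bind. A match was found for 5 of the 7 genes (Rel, Nfkb2, Nfkbia, Nfkbie and Tnfaip3), in 7 of the 10 windows, and 3.9% of the 32851 mouse windows in the table held at least 1. Rela and Bcl3 had no consensus match in this window, and neither had the Tnfaip3 window that is not shown. A match is a string of letters and says nothing of binding in these cells. Capitals mark the bases of a match, and overlapping matches run together.
Rel, chr11:23770970-23771219, minus strand: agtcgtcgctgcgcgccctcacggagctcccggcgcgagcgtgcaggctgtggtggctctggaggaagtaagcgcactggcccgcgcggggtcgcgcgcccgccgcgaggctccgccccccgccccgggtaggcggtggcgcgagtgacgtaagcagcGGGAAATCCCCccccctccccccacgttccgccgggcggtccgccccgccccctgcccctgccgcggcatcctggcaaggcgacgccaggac
Nfkb2, chr19:46304487-46304736, plus strand: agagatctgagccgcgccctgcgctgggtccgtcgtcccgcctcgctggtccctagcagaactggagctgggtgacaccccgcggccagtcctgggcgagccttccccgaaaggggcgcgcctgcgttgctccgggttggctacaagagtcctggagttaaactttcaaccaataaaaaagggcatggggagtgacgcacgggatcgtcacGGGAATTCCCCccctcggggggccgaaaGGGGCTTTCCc
Nfkbia, chr12:55492648-55492897, minus strand: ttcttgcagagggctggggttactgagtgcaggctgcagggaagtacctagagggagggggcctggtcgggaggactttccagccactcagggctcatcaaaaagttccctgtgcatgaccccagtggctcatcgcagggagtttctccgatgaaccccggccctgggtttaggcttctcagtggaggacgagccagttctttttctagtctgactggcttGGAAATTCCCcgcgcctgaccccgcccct
Tnfaip3, chr10:19015411-19015660, minus strand: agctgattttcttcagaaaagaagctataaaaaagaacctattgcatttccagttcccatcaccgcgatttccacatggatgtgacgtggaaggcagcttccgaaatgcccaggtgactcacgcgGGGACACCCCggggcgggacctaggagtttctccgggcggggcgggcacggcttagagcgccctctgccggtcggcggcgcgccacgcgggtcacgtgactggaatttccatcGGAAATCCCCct
Rela, chr19:5637291-5637540, plus strand: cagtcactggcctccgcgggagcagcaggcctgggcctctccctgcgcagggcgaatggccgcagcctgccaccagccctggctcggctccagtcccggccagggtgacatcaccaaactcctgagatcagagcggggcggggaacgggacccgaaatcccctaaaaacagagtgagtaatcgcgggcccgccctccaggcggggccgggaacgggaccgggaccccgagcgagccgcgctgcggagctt
Bcl3, chr7:19822756-19823005, minus strand: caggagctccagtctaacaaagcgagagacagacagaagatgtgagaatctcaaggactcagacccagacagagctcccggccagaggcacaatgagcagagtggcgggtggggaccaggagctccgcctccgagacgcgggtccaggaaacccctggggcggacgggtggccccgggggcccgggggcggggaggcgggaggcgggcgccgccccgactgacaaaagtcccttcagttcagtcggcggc
The genes with the subunit order (Rel, Nfkb2) and with the other order (Nfkbia, Tnfaip3) both hold consensus matches. Matches start 92 and 91 bases before the Rel start, 39, 38 and 11 bases before this Nfkb2 start, 29 bases before the Nfkbia start and 125 and 12 bases before this Tnfaip3 start. Bcl3, with the highest sDC value against imDCs among the members, has none here.

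Most kinases and adaptors upstream of NF-kB stayed within 2-fold in each comparison. This list is called activating here, although not all of its genes only activate. Of 24 listed genes 23 had a value. Against maDCs, sDCs had 4 of them lower by 2-fold or more, a share near the 16.8% of all genes, and 0 higher (14.2%), with a median of -0.18: Malt1, a protease of the CARD-BCL10 complex, at -2.81, Map3k14, which encodes the NIK kinase of the alternative route, at -2.23, the ubiquitin ligase gene Birc2 at -1.71 (-0.86 on another probe), and Traf6, a ligase that relays toll-like receptor signals, at -1.19. In sDCs against imDCs 3 were lower, again near the share of all genes (16.1%), and none higher (25.4%), with a median of -0.15: Map3k7, which encodes TAK1, at -1.27, Malt1 at -1.13 (0.10 on another probe) and the adaptor gene Myd88 at -1.02. In maDCs against imDCs 4 were higher, near the 21.6% of all genes. These were Malt1 (1.68), Map3k8 (1.49), Birc2 (1.34, and 0.76 on another probe) and Map3k14 (1.30). Irak4 was lower (-1.06, with 10.8% of all genes lower), and the list median was 0.14. The IkB kinase genes Chuk, Ikbkb and Ikbkg, named here after their values were seen, stayed within 2-fold on their brightest probes, but other Ikbkg probes did not. For sDCs against imDCs 2 of them gave 2.14 and 2.91, and for sDCs against maDCs 1 gave 1.98 and another lay at the 2-fold line in the opposite direction, lower in sDCs.

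Further inhibitors of the pathway were mixed. Of 16 listed genes 15 had a value, and in sDCs against maDCs 3 were lower (16.8% of all genes) and 1 higher (14.2%), with a median of -0.27. Nfkbib, which encodes IkB-beta, was at -2.21 and Zc3h12a, which encodes the RNase Regnase-1, at -2.08. The A20 partner gene Tax1bp1 was at -1.11 (-0.62 and -1.21 on its other probes). Pdlim2, which encodes a ligase that targets nuclear p65, was at 2.34. In sDCs against imDCs 3 were higher (25.4% of all genes) and none lower (16.1%), with a median of 0.15, these being Zc3h12a (1.56), the A20-binding protein gene Tnip3 (1.31) and Pdlim2 (1.22, and 0.43 on another probe). In maDCs against imDCs 4 were higher (21.6% of all genes) and 2 lower (10.8%), with a median of 0.26. The higher were led by Zc3h12a at 3.64, Tnip3 at 1.64 and Nfkbib at 1.58. The lower were Pdlim2 at -1.12 (-0.78 on another probe) and Nfkbil1 at -1.08. Nfkbib, followed here after its values were seen, was also lower in sDCs than in imDCs (-0.64, inside 2-fold), the sign of the subunit genes.

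Receptors and ligands of the alternative route had 11 of 12 genes with a value in each comparison. In sDCs against maDCs 4 were lower (16.8% of all genes) and 2 higher (14.2%), with a median of -0.24 and with Tnfrsf13c, which encodes the BAFF receptor, at -3.05, Tnfsf11, which encodes RANKL, at -2.24, Tnfsf13b, which encodes BAFF, at -1.39 (-0.02 on another probe) and Tnfrsf12a, which encodes the TWEAK receptor, at 1.27. In sDCs against imDCs 6 were higher (25.4% of all genes) and 2 lower, at the share of all genes (16.1%), with a median of 1.01, and the TWEAK gene Tnfsf12, not well above background in imDCs, was at least 13.3-fold higher. Ltb, which encodes lymphotoxin beta, was at -3.35 and Tnfrsf12a at 2.47. In maDCs against imDCs 5 were higher (21.6% of all genes) and 1, Ltb at -2.11, lower (10.8%), with a median of 0.94 and with Tnfsf11 at 3.96.

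NF-kB target genes other than the members followed maDCs. Of 31 target genes with a value, 29 were at least 2-fold higher in maDCs than in imDCs (21.6% of all genes) and none lower (10.8%), with a median of 2.23. In sDCs 18 of 31 lay at least 2-fold below maDCs (16.8% of all genes) and 0 above (14.2%), with a median of -1.56. The p40 gene of IL-12, Il12b, was at -9.30, Ccr7 at -6.68 and Il6 at -6.21 there. Against imDCs the sDC array split, with 13 of 30 higher (25.4% of all genes) and 8 lower (16.1%), and a median of 0.71. Among the higher were the acute-phase gene Saa3 (6.41), the neutrophil-attracting chemokine gene Cxcl1 (5.46) and Ptgs2 (2.96), which encodes cyclooxygenase 2. The nitric oxide synthase gene Nos2, not well above background in imDCs, was at least 45.2-fold higher. Among the lower were the homing receptor gene Ccr7 (-4.74) and the chemokine gene Ccl22, which was not well above background in sDCs and at least 63.8-fold lower. In antibody-treated sDCs against sDCs, 1 of 29 target genes, the adhesion molecule gene Vcam1 at -1.01 (-0.76 on another probe), passed 2-fold, where 1.26% of all genes were lower. The activating and inhibiting lists had no gene past 2-fold in that comparison, nor did the alternative route on its brightest probes.

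**Figure D4:**
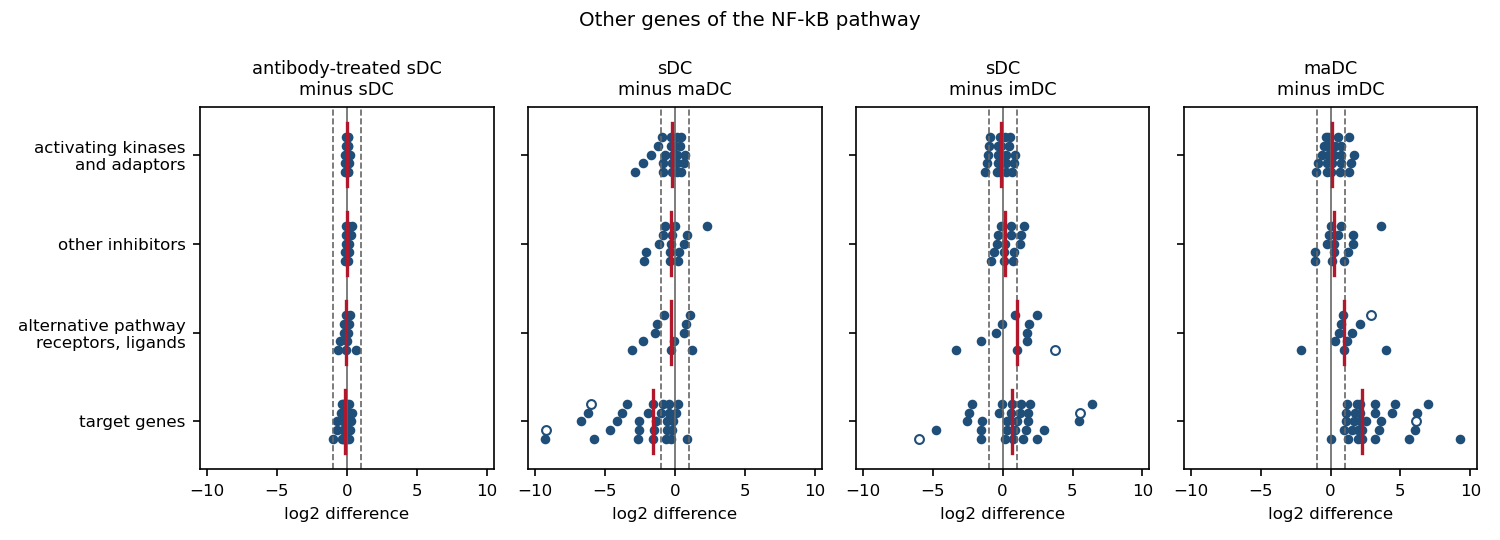
Log2 difference (x axis) of the genes of 4 pathway lists that hold no member, in the 4 comparisons. Each point is a gene on its brightest probe, open points are lower limits of the size of a difference where 1 array was not well above background, red bars are list medians and dashed lines mark 2-fold. The target genes have their median at -1.56 in sDCs against maDCs, 0.71 in sDCs against imDCs and 2.23 in maDCs against imDCs, while the activating kinases and adaptors have medians within 0.18 of 0.

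Markers of the cell types that such cultures could hold differed between the arrays as well. The summed linear signal of 12 dendritic cell markers was 45.5 in antibody-treated sDCs and 50.1 in sDCs, against 506 in maDCs and 327 in imDCs, and Irf4 was not well above background in the stroma cultures. Irf8 made up most of both stroma sums, with log2 levels of 5.2 in antibody-treated sDCs and 5.3 in sDCs. Of the 12, 11 were at least 2-fold lower in sDCs than in imDCs (16.1% of all genes) and 1 was higher (25.4%). In antibody-treated sDCs, sDCs, maDCs and imDCs, in that order, the sum over 12 macrophage markers was 682, 747, 305 and 61.4. That over 12 stromal markers was 131, 221, 140 and 152. The stromal sums do not show how most of these genes differed, since Thy1 was lower in sDCs than in maDCs (4.72 against 6.63, a difference of -1.92). Of the 12, 10 were at least 2-fold higher than in maDCs (where Pdgfra, Postn and Loxl1 were not well above background) both in antibody-treated sDCs, with a median of 4.91 (13.9% of all genes), and in sDCs, with a median of 5.90 (14.2%). Against imDCs, 10 of the 12 stromal markers were again at least 2-fold higher and 1 was lower, in each stroma culture. The median was 6.81 in antibody-treated sDCs (24.0% of all genes higher, 16.4% lower) and 7.57 in sDCs (25.4% and 16.1%). Col3a1, Lum and Pdgfra were not well above background in imDCs. Mast cell and basophil markers summed to 0.88 and 0.68 in the stroma cultures, against 139 in maDCs and 26.7 in imDCs. Neutrophil markers summed to 261 in antibody-treated sDCs, 148 in sDCs, 112 in maDCs and 1207 in imDCs. The neutrophil sum was higher in sDCs than in maDCs, but 6 of 11 were at least 2-fold lower in sDCs than in maDCs (16.8% of all genes) and 2 higher (14.2%), with a median of -1.13, Mpo at -4.09, Lcn2 at -3.66 and Elane at -2.58. Eosinophil markers summed to 0.14, 0.10, 3.55 and 26.6 in the same order, and B and T cell markers to 1.07, 0.93, 2.26 and 0.53. Heat shock and immediate early genes, which respond to handling, were 2-fold higher in maDCs than in imDCs for 6 of 10 (21.6% of all genes) and 2-fold lower in sDCs than in maDCs for 3 of 10 (16.8%). In antibody-treated sDCs against sDCs, 6 of 11 neutrophil markers were 2-fold higher (0.862% of all genes), and 1 of 12 stromal markers was 2-fold lower (1.26%), with a median of -0.89. The part of these cell types in the members' values was not tested.

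The genes whose profile over the 4 arrays was nearest to a member's were found by the root mean square difference of centred log2 levels, among 12941 other genes well above background on all arrays. Rel had few near neighbours, with 13 genes within 0.25 log2 units. The nearest were Tent5c (0.08), Tcf7 (0.12) and Adra2a (0.14). On its brightest probe Nfkb1 had 99 such genes, led by Mettl27 (0.04), the channel gene Panx1 (0.04) and the kinase gene Ripk2 (0.04). Nfkb2 had rank 16 for that probe. Nfkbia was nearest to Klf4, a transcription factor gene, at 0.02, and had 283 genes within 0.25. Its nearest member was Nfkbie at 0.18. The nearest genes were Catsperz for Relb (0.03), Stat5a for Nfkb2 (0.04), Zfp36l1 for Nfkbie (0.02), Nkx1-2 for Nfkbiz (0.04) and Phlda3 for Tnfaip3 (0.04). Bcl3 was nearest to Lmna, which encodes lamin A/C, at 0.04, and its nearest member, Nfkbie, lay at 0.55, at rank 2188. With 4 arrays many genes share a profile, so these distances are descriptions.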

How the data were processed

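RNA from 4 cultures was labelled with the dye Cy3 and measured on 1 array each. The authors deposited scanner tables whose intensity values, per the file headers, were written by version 10.5.1.1 of Agilent Feature Extraction after background subtraction and detrending. Version 9.1 is the one in the submitters' processing notes. The deposited value table is on a log2 scale, since its columns correlated with log2 scanner values at 0.997 to 1.00. Its columns share a median of 6.30, and the sources used here do not say how it was made.

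Log2 intensity minus the array's 75th percentile of non-control spots was averaged over a probe's spots without outlier marks. The scanner's mark for well above background had to be set on 50% or more of a probe's spots. Genes were named through a RefSeq table (GRCm38.p6, names only) and given by their brightest probe on average. Where 1 array was not well above background, the difference is a lower limit of its size, taken against the higher of the dim probe's own signal and the lowest signal well above background. Each array's slide came from the headers. The alternatives were run on 4 comparisons. Antibody-treated sDCs were also set against maDCs and against imDCs, and the calls there, such as those of Nfkbia and Nfkbiz, were not repeated under the alternatives. No test was possible with 1 array per group. Only the difference and quantile scaling steps were run on simulated data, with planted changes past 2-fold and little noise, an easy case. The number of arrays limits the precision.

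The members and the pathway and marker lists were chosen with earlier results of these data known. Named genes were all members, up to 4 genes per list with the largest differences, and the 3 nearest profiles. Alternatives were quantile normalization, a percentile over probes well above background on all arrays, normexp correction (offset 50, limma 3.58.1), the deposited values, the median over probes, no dim filter and 1.5-fold. Python 3.11.15, numpy 2.4.6 and pandas 2.3.3 were used.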

Additional observations from a re-analysis of the deposited data

How the results depend on the processing

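Of 40 member differences (10 genes in 4 comparisons), 19 were past 2-fold, and none of these changed sign under the 6 alternatives that give a value. The 2 that did change sign, Nfkb1 and Nfkbie in antibody-treated sDCs against sDCs, were within 0.15 of 0. Dropping the dim filter could not move a member, and the median over probes could move only Rela and Nfkb1. Crossing 2-fold were Rel in sDCs against imDCs (-0.89) and Nfkbia (1.12) under normexp, Nfkb1 in sDCs against imDCs with the median over probes (-0.46), and Nfkb2 in maDCs against imDCs under quantile normalization (0.85) and with the authors' deposited table, and the cause was not tested. In sDCs against imDCs the number of members at least 2-fold higher was 2 under normexp and 5 at 1.5-fold, against 1, and the members' median was 0.43 under normexp, 0.38 under quantile normalization and 0.33 with the median over probes. Under quantile normalization the median was -1.33 in sDCs against maDCs and 1.42 in maDCs against imDCs. Over all genes, the counts higher and lower in antibody-treated sDCs against sDCs were 45 and 48 under normexp, 309 and 584 with no dim filter and 301 and 778 at 1.5-fold, against 124 and 181. With no dim filter 6165 genes were higher in sDCs and 6219 in maDCs, both against imDCs, where 3816 and 3045 were in the main setting. At 1.5-fold 3706 genes were lower in sDCs than in imDCs, 3594 higher in sDCs than in maDCs, and 4739 higher and 2817 lower in maDCs than in imDCs, since the threshold is lower. No paired analysis was possible because each group has 1 array, and leaving out an array would remove a group. Low signal limits Rel most, since it lay near the lowest signal well above background in the stroma cultures.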

Other observations

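Card9 and Nlrc5, listed among the pathway genes, matched no probe and were not analysed here, and Cd40lg and Sele were not well above background on any of the 4 arrays. Tnfsf11 was at -0.51 in antibody-treated sDCs against sDCs, and its other probe gave -1.06.

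In the authors' deposited table, Rel had log2 values of 4.71 in antibody-treated sDCs, 4.74 in sDCs, 9.47 in maDCs and 7.07 in imDCs, and Bcl3 had 13.60, 13.69, 13.12 and 11.40 in the same order.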
